A study of Capra hircus with 2 samples.

Results

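The miR-191 and miR-425 cluster consists of 2 microRNA (miRNA) genes that lie next to each other in mammalian genomes. It was followed in small RNA libraries from the mammary gland of dairy goats (Capra hircus). Its members were found by sequence alone. A tag is a clean read, and identical tags are listed once with their count. Assignment to an arm asked for a length of 18 nt or more, a start at base 1, 2 or 3 of the mature arm, an exact match to its first 18 bases and no more than 3 nt past its end. All 4 arms of the 2 genes were found, as were all of a panel of 169 mature miRNAs that includes them. miRNAs outside this panel were not counted, so ranks, shares and counts of miRNAs below refer to the panel. The early involution library came from glands taken on day 5 after forced weaning, on day 218 after parturition. The early lactation library came from glands taken on day 10 after parturition. Each library was made from 1 equal mixture of RNA from 5 goats, so there was 1 pooled library per stage, the spread between goats is not known and no test between the stages was possible. Weaning, the time since parturition and the library itself cannot be told apart. In tissue RNA, fewer cells of a type and less RNA per cell cannot be told apart either.

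A miRNA gene is transcribed as a hairpin that is cut to a duplex, and one strand of the duplex is usually kept by an Argonaute protein. The bases behind the first one form the seed, which pairs with target mRNAs, so a cut shifted by a single base gives a miRNA with another seed. Trimming and addition of A or U at the 3′ end give further variants of the same miRNA, called isomiRs. In human breast cancer cells the cluster is known to respond to oestrogen receptor alpha. miR-191 is also widely used as a reference in small RNA PCR because its level differs little between many tissues.

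RefSeq's table of goat genes, assembly ARS1.2, gives the neighbourhood. There MIR191 (gene ID 104797249) was listed between NDUFAF3 and DALRD3 and within no other gene. MIR425 (gene ID 104795834) was the next miRNA gene, lay within the span of DALRD3 and was followed by WDR6. The files name no genome build, so no coordinates are given.

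The sequences below were read from the deposited tags and are, for each arm, the most abundant tag over both libraries that begins at its first base and has 20 to 25 nt, written 5′ to 3′ as DNA. That of miR-191-3p had the same count as a form with a T added. They show what was counted, and the capitals mark the seed, bases 2 to 8.
miR-191-5p: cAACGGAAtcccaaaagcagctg
miR-425-5p: aATGACACgatcactcccgttga
miR-191-3p: gCTGCGCTtggatttcgttc
miR-425-3p: aTCGGGAAtgtcgtgtccgcc
The 4 seeds differed from each other, and none was shared with another of the 169 miRNAs, so the neighbours do not form a seed family. A further form is shown because a large share of miR-425-5p tags had it. It lacks the first base and runs 2 bases further at the 3′ end, which turns the seed from ATGACAC into TGACACG.
miR-425-5p lacking 1 base: aTGACACGatcactcccgttgagt

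The involution library held 7385833 clean tags and the lactation library 18031615, 2.44 times as many. Tags assigned to a miRNA were 78.7% of the involution library and 84.6% of the lactation library. TPM here means tags among 1000000 clean tags of a library, a scale that counts reads and needs no scaling to length, and 3 tags correspond to 0.406 TPM in involution and 0.166 TPM in lactation. Brackets give 95% intervals. That of a level is exact Poisson, that of a share is Clopper-Pearson, and that of a ratio of the stages (involution over lactation) is Clopper-Pearson conditional on the summed count. PCR copies were not marked, so all intervals cover counting error only. The tissue label was checked with miRNAs known as markers. All 8 epithelial markers were present in both libraries, among them miR-148a, abundant in milk and in lactating epithelium, at 25634 TPM in involution and 57078 TPM in lactation. The liver miRNA miR-122 was at 5.55 TPM in involution and 1.11 TPM in lactation. Not every marker of another tissue was scarce, since the striated muscle miRNA miR-1 was at 1463 TPM in involution and 1888 TPM in lactation. No listed marker was at 0 in either library.

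Scaled to clean tags, miR-191-5p was at nearly the same level in both libraries. It had 9266 tags in involution and 22922 in lactation, which gave 1255 TPM (1229 to 1280) in involution and 1271 TPM (1255 to 1288) in lactation. The ratio was 0.987 (0.963 to 1.011), a log2 ratio of -0.02, with an interval that includes 1. Among the 169 miRNAs it ranked 41st by level in involution and 35th in lactation. In involution the next miRNA above it was miR-181a at 1294 TPM (1268 to 1320), with an overlapping interval, and the next below was miR-29b at 1147 TPM, with no overlap. In lactation the intervals of both its neighbours in the order, miR-148b at 1528 TPM and miR-155 at 1205 TPM, lay apart from its own.

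miR-425-5p was the scarce member in both stages and, per clean tag, was higher in involution by a factor below 2. It had 176 tags in involution and 267 in lactation. Its level was 23.8 TPM (20.4 to 27.6) in involution and 14.8 TPM (13.1 to 16.7) in lactation. The ratio was 1.61 (1.32 to 1.95), a log2 ratio of 0.69. Its level was 0.0751 times the median of all miRNAs that reached 10 TPM in a library in involution and 0.0913 times in lactation. The miRNAs just above and below it were miR-542-3p at 27.2 TPM and miR-328 at 23.6 TPM in involution, and miR-130b at 14.9 TPM and miR-708 at 14.5 TPM in lactation. The intervals of all 4 overlapped its own.

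The 3p arms were near the limit of what these libraries can show. miR-191-3p had 11 tags in involution and 37 in lactation, which gave 1.49 TPM in involution and 2.05 TPM in lactation, with a ratio of 0.726 (0.334 to 1.45). The miR-191-3p form printed above was not its commonest start, since 8 of the 11 tags in involution and 23 of the 37 in lactation lacked the first base and so carry the seed TGCGCTT. miR-425-3p had 5 tags in involution, 0.677 TPM, and 10 in lactation, 0.555 TPM, and its ratio of 1.22 (0.327 to 3.92) leaves the direction unknown at this depth. Together the 4 arms took 0.128% of clean tags in involution and 0.129% in lactation, nearly all of it miR-191-5p.

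**Figure D1:**
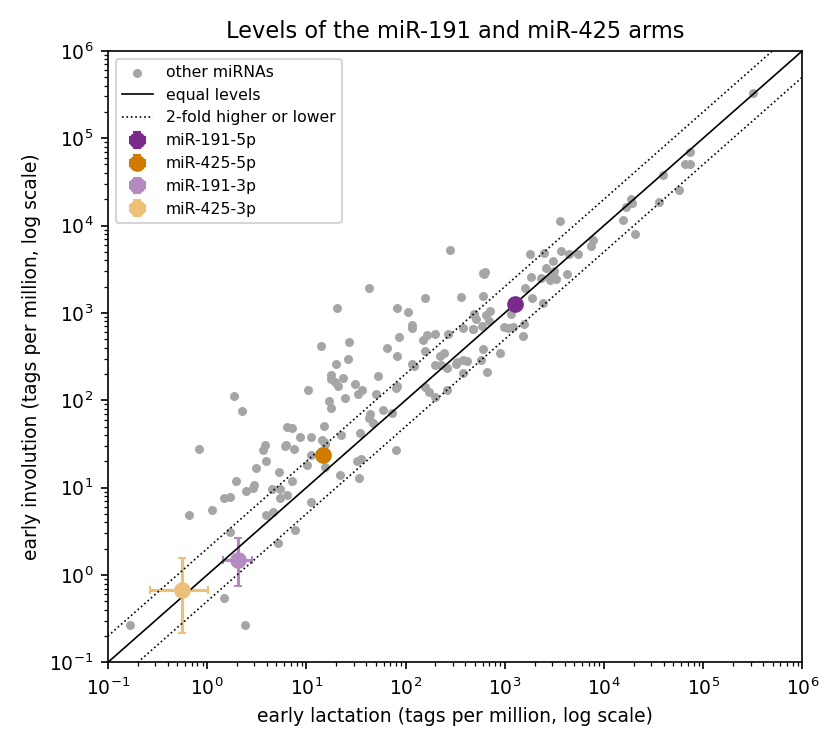
Level of each miRNA in early involution (vertical axis, TPM, log scale) against early lactation (horizontal axis, TPM, log scale), with the 4 arms of the cluster in colour, 95% Poisson intervals as bars on these arms, the line of equal levels and dotted lines at 2-fold. miR-191-5p, at 1255 TPM in involution and 1271 TPM in lactation, lies on the line of equal levels, and miR-425-5p, at 23.8 TPM in involution and 14.8 TPM in lactation, lies between the line and the upper dotted line.

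To be called, a miRNA needed 10 TPM or more in a library, a ratio of 2 or more (called higher in involution) or of 0.5 or less (called lower), and an interval entirely on that side of 1. Of the 4 arms, both 5p arms and neither 3p arm reached 10 TPM. Of the 2 members tested, 0 were called, against 50.0% of the 150 miRNAs tested (44.7% called higher and 5.33% called lower). The median log2 ratio of the 150 was 0.73, so at this scaling most miRNAs had higher levels in involution. Set against them, 46 had a lower ratio than miR-191-5p and 103 a higher one, and 1 of the 150 lay closer to a ratio of 1. miR-425-5p was in the middle of the same order, with 73 below it and 76 above.

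Where the ratio of 1 lies depends on the scaling, which moves all miRNAs together. With median-of-ratios factors every log2 ratio is 0.70 lower, with TMM factors 0.54 lower, and with miRNA tags as the total 0.11 higher. The ratio of miR-191-5p then becomes 0.606, 0.678 or 1.062 in that order, and that of miR-425-5p 0.989, 1.11 or 1.73. The calls split into 51 higher and 33 lower with median-of-ratios factors and 54 higher and 26 lower with TMM factors, against 67 higher and 8 lower with clean tags. The order of the miRNAs and the ratio of the neighbours within a library are the same under each scaling.

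Within the involution library there were 52.6 miR-191-5p tags (45.4 to 61.5) for each miR-425-5p tag, and within the lactation library 85.9 (76.1 to 97.2). miR-425-5p thus made up 1.86% (1.60 to 2.16) of the tags of the pair in involution and 1.15% (1.02 to 1.30) in lactation. The quotient of miR-425-5p to miR-191-5p was 1.63 times as high in involution as in lactation, with a log-scale Wald interval from the 4 counts of 1.35 to 1.98. Counted from tags that start at the first base only, it was 1.26, and the ratio of miR-425-5p was 1.28 with an interval that includes 1 (0.958 to 1.70). These first-base tags were 77 of miR-425-5p beside 8977 of miR-191-5p in involution and 147 beside 21550 in lactation. No interval of the quotient was computed for them. In both stages miR-191-5p was the more abundant by well over 10-fold. The shares of the pair had intervals that did not overlap between the 2 libraries when all tags under the rule were counted.

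The same quotient was taken for 32 other pairs of miRNAs from neighbouring genes, of which 29 had both miRNAs at 10 TPM or more in a library. In 11 of these the ratios of the pair lay closer together than those of miR-191-5p and miR-425-5p, and in 18 they lay further apart. The median was 2.66-fold, the closest pair was miR-221 and miR-222 at 1.02-fold, and the furthest was miR-30d and miR-30b at 15.4-fold. In 17 of the 29 pairs the ratios differed by over 2-fold. Some of these miRNAs, such as miR-16 and miR-29b, have further gene copies elsewhere whose tags cannot be told apart. These and others, such as miR-27a, entered more than a single pair, so the pairs are not independent of each other.

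**Figure D2:**
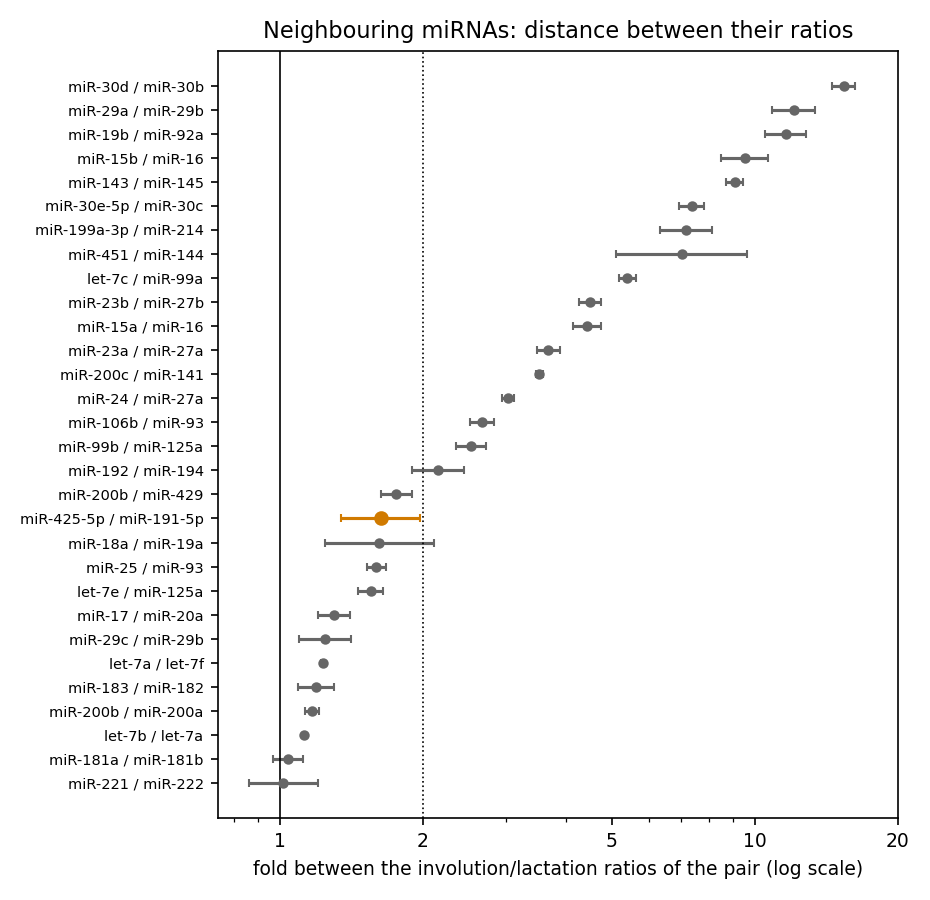
Fold between the involution-over-lactation ratios of the 2 miRNAs of each neighbouring pair (horizontal axis, log scale, larger ratio over smaller), with 95% log-scale Wald intervals from the tag counts, a solid line at equal ratios and a dotted line at 2-fold. The pair of miR-425-5p and miR-191-5p, in orange at 1.63-fold, has 18 pairs above it and 11 below.

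Among the 108 miRNAs with at least 100 TPM in a library, those nearest to miR-191-5p in log2 ratio over these 2 libraries were miR-103 with miR-107, counted together (ratio 0.980), miR-151-3p (0.973), let-7f (0.959), miR-146b (0.955) and miR-378 (0.947). miR-103 with miR-107, like miR-191 a common PCR reference, was at 16192 TPM in involution and 16518 TPM in lactation. Nearest to miR-425-5p were let-7d (1.65), miR-92a (1.49), miR-221 (1.75), miR-200a (1.48) and miR-224 (1.75). Of 14 miRNAs often used as references in small RNA PCR, 2 were called higher, 0 lower and 12 were not called, beside the 44.7% and 5.33% of all miRNAs tested. Those called were miR-361, at 132 TPM in involution and 36.8 TPM in lactation, and miR-26a, at 11343 TPM in involution and 3595 TPM in lactation. The median log2 ratio of the 14 was 0.25, with a range of -0.36 to 1.84. All 14 lay further from 0 than miR-191-5p at this scaling. Since 1 of the 150 miRNAs tested lay closer, this does not set the 14 apart, and other scalings move every log2 ratio.

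The cell type markers differed in how they stood beside these values. The 3 erythroid markers summed to 3197 TPM in involution and 940.0 TPM in lactation, with 2 called higher and 0 lower. The 6 leukocyte markers summed to 1763 TPM in involution and 1440 TPM in lactation, with 5 called higher and 0 lower, and their median log2 ratio was 2.15. Most of the leukocyte sum in lactation was miR-155, the 1 marker not called. It was at 697 TPM in involution and 1205 TPM in lactation, a ratio of 0.578. The 8 epithelial markers summed to 52318 TPM in involution and 78170 TPM in lactation, with 3 called higher and 1, miR-148a, called lower. In lactation most of that sum was miR-148a, and the median log2 ratio of the 8 was 0.46. Of the 5 stromal and smooth muscle markers 2 were called higher, of the 2 endothelial markers 1 and of the 3 striated muscle markers 1, and none of these was called lower. The stromal and smooth muscle markers summed to 330940 TPM in involution and 317160 TPM in lactation. The 2 endothelial markers, the arms of miR-126, had ratios of 0.794 (3p) and 4.23 (5p). The striated muscle markers summed to 1493 TPM in involution and 1913 TPM in lactation, most of it miR-1. Their median log2 ratio was -0.37, and the 1 called was miR-133a, at 16.65 TPM in involution and 3.11 TPM in lactation. The counts of markers called stand beside the 44.7% of all miRNAs tested that were called higher and the 5.33% called lower. The part of cell composition in the levels of miR-191-5p and miR-425-5p was not tested.

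The 3′ ends of miR-191-5p, whose shares do not depend on the scaling, differed between the libraries. The 23 nt form shown above was the most abundant in both libraries, with 4278 tags in involution, 46.2% of all miR-191-5p tags, and 11847 in lactation, 51.7%. The shorter and longer forms that follow show the 3′ end step by step, with the seed in capitals.
miR-191-5p, 20 nt: cAACGGAAtcccaaaagcag
miR-191-5p, 21 nt: cAACGGAAtcccaaaagcagc
miR-191-5p, 22 nt: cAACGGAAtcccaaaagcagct
miR-191-5p, 24 nt with A: cAACGGAAtcccaaaagcagctga
miR-191-5p, 24 nt with T: cAACGGAAtcccaaaagcagctgt
The 22 nt form was the second most abundant in involution, with 1892 tags or 20.4%, and the fourth in lactation, with 2075 tags or 9.05%. The 21 nt form had 909 tags, 9.81%, in involution and 3250 tags, 14.2%, in lactation. The 20 nt form had a like share in both, 962 tags or 10.4% in involution and 2578 tags or 11.2% in lactation.

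Counted over all miR-191-5p tags, 43.8% (42.8 to 44.9) were shorter at the 3′ end than the 23 nt form in involution and 36.0% (35.4 to 36.6) in lactation. Tags shorter by exactly 1 base made up 21.7% (20.9 to 22.6) in involution and 9.66% (9.28 to 10.05) in lactation, a difference of 12.1 percentage points. Of 87 miRNAs that reached 1000 tags in each library, 2 had a larger increase in this share, and the median difference was 0.70 points. For tags shorter by 2 bases the order of the stages was the other way round, with 10.5% in involution and 14.7% in lactation. The mean length was 22.25 nt in involution and 22.27 nt in lactation, so the different ends nearly cancelled in the mean. Shortened tags were common for miR-191-5p by comparison, since the median share over the 87 miRNAs was 17.0% in involution and 16.8% in lactation, with 9 miRNAs above miR-191-5p in involution and 18 in lactation.

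**Figure D3:**
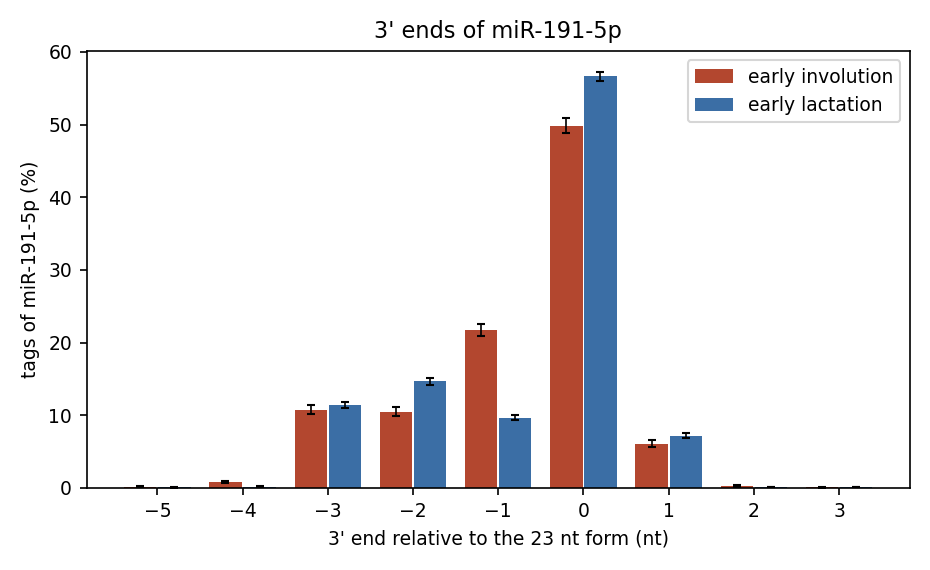
Share of miR-191-5p tags (vertical axis, percent of 9266 tags in early involution and 22922 in early lactation) by the position of the 3′ end relative to the 23 nt form (horizontal axis, nt), with 95% Clopper-Pearson intervals as bars. At 1 base shorter the involution bar stands at 21.7% and the lactation bar at 9.66%, and at the 23 nt end the order is the other way round, with 49.8% in involution and 56.6% in lactation.

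Tags that ran past the 3′ end of the 23 nt form were a small share of miR-191-5p, 6.35% (5.86 to 6.86) in involution and 7.38% (7.05 to 7.73) in lactation. Nearly all of them had 1 extra base. That base differed between the stages. It was A in 60.0% (55.8 to 64.0) of 562 such tags in involution and in 86.9% (85.2 to 88.5) of 1648 in lactation. It was T in 38.6% (34.6 to 42.8) in involution and in 12.0% (10.5 to 13.7) in lactation. As a share of all miR-191-5p tags, the added T made up 2.34% in involution and 0.864% in lactation, against medians over the 87 miRNAs of 1.98% in involution and 1.33% in lactation. The precursor was not used here, so a base copied from the gene and a base added afterwards cannot be told apart.

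At the 5′ end most miR-191-5p tags began at the first base. Tags lacking 1 base made up 284 of the 9266 tags in involution, or 3.06%, and 1372 of 22922 in lactation, or 5.99%. With the few tags lacking 2 bases, 5 in involution and 0 in lactation (up to 0.0161% allowed), the share was 2.87 points lower in involution, and 1 of the 87 miRNAs had a larger decrease. The share itself was above the median of the 87 miRNAs, 0.552% in involution and 0.311% in lactation, with 14 miRNAs above miR-191-5p in involution and 10 in lactation. The tags lacking 1 base carry the seed ACGGAAT, which none of the 169 miRNAs has. They were longer at the 3′ end more often than tags that begin at the first base, with 22.2% (17.5 to 27.5) against 5.84% (5.36 to 6.34) in involution and 18.5% (16.5 to 20.7) against 6.67% (6.34 to 7.01) in lactation.

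miR-425-5p, by contrast, had no single start. Tags lacking the first base were 92 of 176 in involution, or 52.3% (44.6 to 59.8), and 118 of 267 in lactation, or 44.2% (38.1 to 50.4). With those lacking 2 bases, 7 tags in involution and 2 in lactation, 56.2% (48.6 to 63.7) of tags in involution and 44.9% (38.9 to 51.1) in lactation began after the first base. The share was 11.3 points higher in involution, 3 of 136 miRNAs had a larger increase, and the intervals of the 2 stages overlap. The share itself was among the highest in both libraries. Over these 136 miRNAs, which reached 100 tags in each library, its median was 0.681% in involution and 0.383% in lactation, and 3 miRNAs lay above miR-425-5p in each.

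**Figure D4:**
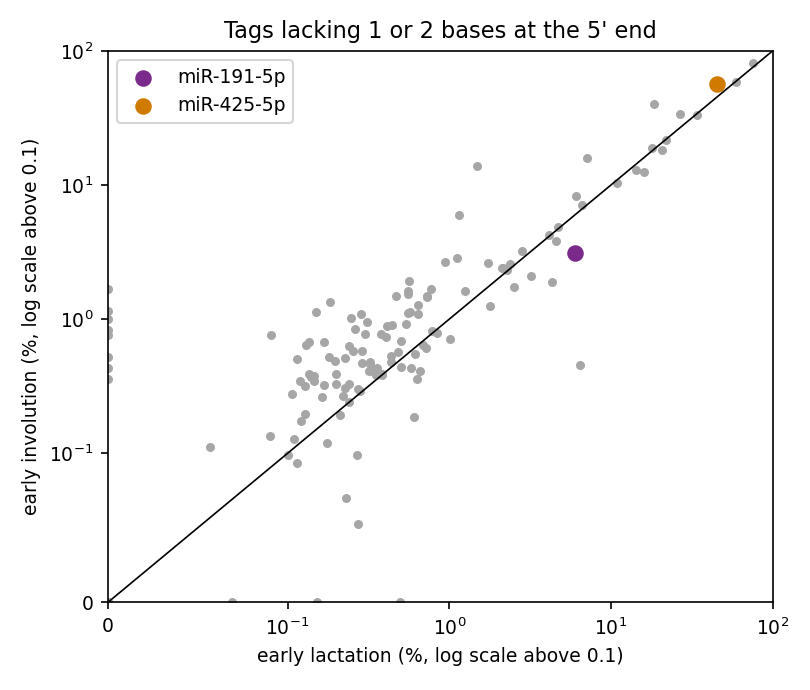
Share of tags that lack 1 or 2 bases at the 5′ end in early involution (vertical axis, percent) against early lactation (horizontal axis, percent) for the 136 miRNAs that reached 100 tags in each library, on axes that are logarithmic above 0.1% and linear below, with the line of equal shares. miR-425-5p lies near the upper end at 56.2% in involution and 44.9% in lactation, and miR-191-5p lies below the line at 3.12% in involution and 5.99% in lactation.

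The 2 ends of miR-425-5p went together. Among tags that began at the first base, 24.7% (15.6 to 35.8) of 77 ran past the 23 nt end in involution and 40.1% (32.2 to 48.5) of 147 in lactation. Among tags lacking the first base, 88.0% (79.6 to 93.9) of 92 did so in involution and 76.3% (67.6 to 83.6) of 118 in lactation. The intervals of the 2 kinds of tag do not overlap in either library. The form shown above, which lacks 1 base and ends 2 bases later, had 41 tags in involution and 46 in lactation, while the 23 nt form had 35 tags in involution and 63 in lactation. These forms are 24 and 23 nt long, and the mean length of miR-425-5p was 23.3 nt in both libraries.

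**Figure D5:**
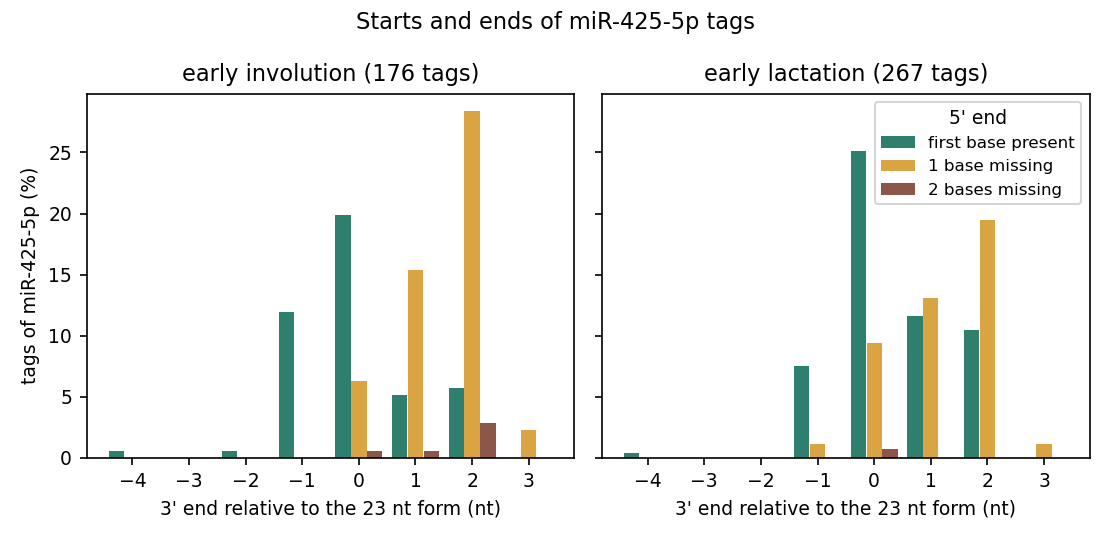
Share of miR-425-5p tags (vertical axis, percent) by the position of the 3′ end relative to the 23 nt form (horizontal axis, nt) and by the 5′ end (colour), with early involution (176 tags) on the left and early lactation (267 tags) on the right. Tags with the first base present peak at the 23 nt end in both stages, and tags lacking 1 base peak 2 bases further on.

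Over both kinds of start, 60.2% (52.6 to 67.5) of miR-425-5p tags in involution and 55.8% (49.6 to 61.9) in lactation were longer at the 3′ end, whereas for miR-191-5p shortened tags outnumbered longer ones. The median over the 136 miRNAs was 18.5% in involution and 13.0% in lactation. Where miR-425-5p was longer by 1 base, that base was G in 35 of 37 tags in involution and in 65 of 66 in lactation, unlike the A and T found on miR-191-5p.

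The 3p arm made up 0.119% (0.0592 to 0.212) of miR-191 tags in involution and 0.161% (0.114 to 0.222) in lactation, so nearly all miR-191 tags came from the 5p arm. For miR-425 the rule gave 2.76% (0.903 to 6.33) in involution and 3.61% (1.75 to 6.54) in lactation. Most miR-425-3p tags, however, began 1 or 2 bases before the start that the rule takes, 33 tags in involution and 48 in lactation beside the 5 and 10 that fitted it. In most of them the extra base was C, as in the most abundant one, with its bases 2 to 8 in capitals.
miR-425-3p starting 1 base earlier: cATCGGGAatgtcgtgtccgc
With such tags counted for all arms, an alternative chosen after seeing the data, the 3p arm made up 17.8% (12.9 to 23.6) of miR-425 tags in involution and 17.9% (13.8 to 22.5) in lactation. miR-425-3p then had 38 tags in involution, 5.14 TPM (3.64 to 7.06), and 58 in lactation, 3.22 TPM (2.44 to 4.16). Its ratio was 1.60 (1.03 to 2.45), beside 1.61 for miR-425-5p.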

How the data were processed

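Small RNA of 18 to 30 nt was sequenced from 1 pooled library per stage, per the labels' protocols. The deposited files list each distinct clean tag with its length and count, and these raw counts were used as given. Per the text deposited with the files, the authors removed reads of low quality, adaptors, tags under 18 nt and polyA, and merged identical reads. Mapping is likewise not given in the sources used here, nor are tools. Tags reached 44 nt, and the filtering logs were not used.

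A panel of 169 miRNAs was recognised by short keys (the first 7 bases and an inner key of 6 or 7), and the most abundant tag of 20 to 25 nt served as the reference of each. This replaced the planned miRNA sequence table, which was not used here, and shares of non-templated bases were not computed. A tag that fitted several miRNAs went to that with the fewest mismatches, and ties (0.0374% of tags in involution and 0.0361% in lactation) were set aside. Levels were divided by all clean tags. Named miRNAs are the arms of the cluster, their 5 most abundant tags, the 5 nearest in log2 ratio, those next in level, and the listed PCR references, neighbours and cell type markers. Members and lists were chosen with earlier results of these data known. Alternatives covered scaling (miRNA tags, median-of-ratios, edgeR TMM), assignment, tag length, thinning and the filter on low levels. Counting and ratios were tested on simulated data. Python 3.11.15, numpy 2.4.6, scipy 1.17.1, matplotlib 3.10.9, R 4.3.3 and edgeR 4.0.16 were used.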

Additional observations from a re-analysis of the deposited data

How the results depend on the processing

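Each stage had 1 pooled library, so the intervals say nothing about goats. No paired analysis was possible because there is 1 library per stage. Besides the scalings given in the report, miR-191-5p had a ratio of 0.882 from identical tags and 1.017 from tags that start at the first base. Its ratio was 1.062 over miRNA tags, 0.606 under median-of-ratios and 0.678 under TMM scaling. For miR-425-5p the ratio was 1.28 from tags that start at the first base, 1.31 from those of them without mismatch over the overlap, 0.989 under median-of-ratios and 1.11 under TMM scaling. The quotient of miR-425-5p to miR-191-5p was 1.26 from tags that start at the first base and 1.33 from those of them without mismatch. Neither 5p arm was called under these settings, but from identical tags miR-425-5p was below 10 TPM and could not have been. The count called higher was 43 of the 109 miRNAs tested with a filter at 100 TPM, beside 67 of 150 in the main setting. The count called lower was 33 under median-of-ratios and 26 under TMM scaling, each of 150 tested. From identical tags it was 14 of 136 tested. With tags that start at the first base only, shortened tags made up 37.8% of miR-191-5p in lactation, 29.9% of miR-425-5p in involution and 14.3% in lactation. Extended tags made up 5.84% of miR-191-5p in involution and 6.67% in lactation, and 24.7% of miR-425-5p in involution and 40.1% in lactation, so that for miR-425-5p the order of the stages turned. With earlier starts counted, added after seeing the data, the 3p arm of miR-425 made up 17.8% in involution and 17.9% in lactation. The 100-tag minimum for end variants was also added after seeing the data. The causes were not tested. Depth limits miR-425-5p, with 176 tags in involution and 267 in lactation, and both 3p arms.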

Other observations

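Tags of miR-191-5p with extra bases in front were present in 1 library. In involution 87 tags, 0.930% (0.746 to 1.15) of the sum with those under the rule, carried 1 or 2 extra bases in front. Where there was 1 extra base, it was A in 54 tags, C in 18, G in 2 and T in 3, so these tags did not share a single preceding base. The precursor was not used, so an earlier cut and a base of another source cannot be told apart. The most abundant of them is shown with its bases 2 to 8 in capitals.
miR-191-5p starting 1 base earlier: aCAACGGAatcccaaaagcagctg
In lactation there were 0 beside 22922 tags, which allows up to 0.0161%. A higher share in involution was common. Over the 87 miRNAs that reached 1000 tags in each library the median share was 0.658% in involution and 0.0545% in lactation, and 69 of the 87 had the higher share in involution. miR-425-5p had 0 such tags in both libraries, which allows up to 2.07% in involution and 1.37% in lactation.

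Single-base changes from the reference in 23 nt tags of miR-191-5p also differed between the libraries. Positions are counted from 1 at the 5′ end, with the reference base first. A14C was in 0 of 4499 tags of 23 nt in involution, which allows up to 0.0820%, and in 161 of 12371, or 1.30% (1.11 to 1.52), in lactation. The further A-to-C shares are taken over unchanged tags plus tags with that change. On that total A14C of miR-191-5p was at 1.34% in lactation. Over 20 miRNAs with A at base 14, the median share of A-to-C was 0% in involution and 0.861% in lactation, with a lowest value of 0.445% in lactation. At A sites at other positions, over all miRNAs examined, the medians were 0.00286% in involution and 0.0156% in lactation. Single sites there reached 0.860% in involution and 0.684% in lactation, so A-to-C was confined neither to base 14 nor to lactation. At base 13 of miR-191-5p, counted likewise, it was in 0.210% of tags in involution and 0.219% in lactation. At the last base of the 23 nt tags the shares were higher in involution. G23T was in 1.56% of the 4499 tags in involution and 0.348% of the 12371 in lactation. G23A was in 1.65% in involution and 0.194% in lactation. Such a tag reads the same as the 22 nt form with T or A added, so a substitution and an addition cannot be told apart. The 22 nt form itself had the larger share in involution, 20.4% of miR-191-5p tags against 9.05% in lactation. Tags with any mismatch after base 18 made up 3.94% of miR-191-5p in involution and 1.44% in lactation.

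Tags that hold the first 18 bases of miR-191-5p but run over 3 nt past its end, or carry it inside a longer tag, numbered 19 in involution, 2.57 TPM (1.55 to 4.02), and 35 in lactation, 1.94 TPM (1.35 to 2.70). A second miRNA of the panel was found in 0 of the 19 in involution and in 12 of the 35 in lactation.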
